A study of Mus musculus with 7 samples.

Results

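The genes described here are 9 members of the epidermal growth factor (EGF) family and its immediate feedback, out of 14817 gene identifiers in a table of read counts. They are the ligands *Areg*, *Ereg*, *Hbegf*, *Btc* and *Tgfa*, the receptors *Egfr*, *Erbb2* and *Erbb3*, and the receptor inhibitor *Errfi1*. The members were chosen by symbol from a list that had been drawn up with earlier results of the same comparison known, and all 9 were in the table and were tested. Their differences between genotypes are therefore given as a description, with a log2 fold change and its standard error (s.e.) but no P value.

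Primary hepatocytes, the main cell type of the liver, came from WT mice (n = 4 libraries) and from WDR6-WKO mice (n = 3), which carry a whole-body CRISPR–Cas9 deletion targeting exon 2 of *Wdr6*. The donors were male, the cells received no treatment, and after collagenase perfusion they were kept overnight in William's E medium with fetal bovine serum. The age of the donor mice and the number of founder lines are not given in the sources used here. The counts compare the mRNA of the 2 genotypes, and the libraries are separate samples by their labels. Reads counted on genes lay between 17816913 and 23668940 per library. *Wdr6* was at 40.6 to 49.0 CPM in the WT libraries and at 2.23 to 2.58 CPM in the WDR6-WKO libraries (log2 fold change -4.20, s.e. 0.11). WDR6-WKO replicate 3 stood apart from the other libraries of its genotype, with a chi-square per gene of 14.3 and 16.0 against them, compared with 5.14 between those 2 libraries. Levels are CPM, counts relative to library size after TMM scaling, which corrects for differences in library composition. Means are given ± s.d. with n = 4 for WT and n = 3 for WDR6-WKO throughout.

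EGF family ligands are made as membrane-bound precursors, are released by metalloproteases at the cell surface, and bind receptor tyrosine kinases of the ErbB family, which pair up and signal through the RAS-ERK cascade. In the liver this pathway is known for driving hepatocyte proliferation during regeneration, and EGFR is abundant on hepatocytes. ERBB2 has no ligand of its own, and ERBB3 has little kinase activity, so each depends on a partner receptor.

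Of the 5 ligands, *Areg*, *Hbegf*, *Btc* and *Ereg* were higher in WDR6-WKO hepatocytes, *Areg* by far the most, and *Tgfa* was lower. Of the receptors, *Erbb3* and *Egfr* were lower, *Erbb3* the most. *Erbb2* and *Errfi1* did not reach the threshold, with log2 fold changes of -0.29 (s.e. 0.11) and -0.10 (s.e. 0.04). Across all 9 genes the WT and WDR6-WKO libraries did not overlap, against 23.5% of all 14779 genes tested. At an adjusted P below 0.05 in edgeR's quasi-likelihood test over all genes, 7 of the 9 were called, 4 higher and 3 lower, against 12.8% of all genes called in either direction, 6.65% higher and 6.18% lower. Because the list was drawn up on this comparison, nothing is read from these counts.

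**Figure D1:**
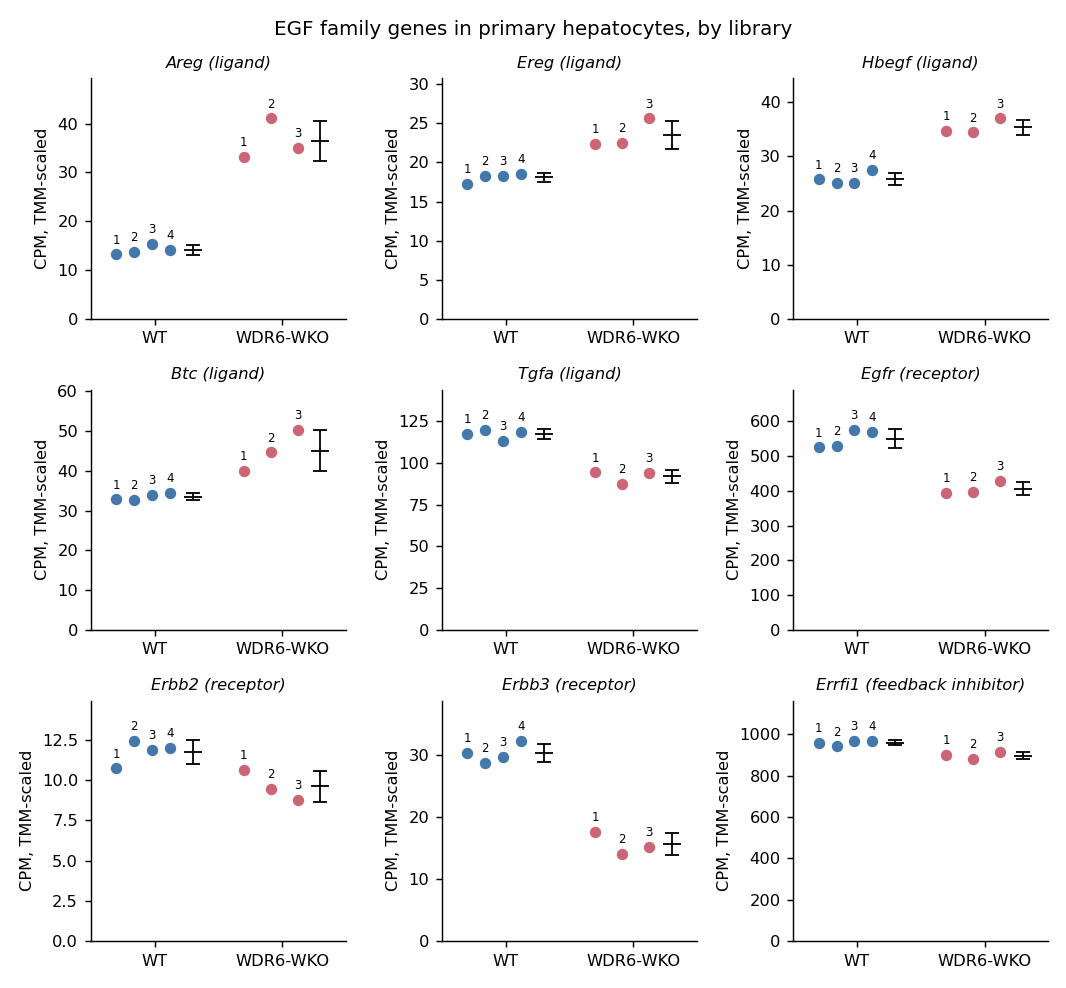
Level of each member in every library, as TMM-scaled CPM on axes that start at 0. Points are libraries with their replicate number (WT in blue, WDR6-WKO in red), and the bars beside them give the mean and s.d. (n = 4 and n = 3). The 4 higher ligands sit above every WT library in all 3 WDR6-WKO libraries, *Tgfa* and the receptors sit below, and *Erbb2* is separated by only 0.101 CPM.

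*Areg* encodes amphiregulin, an EGFR ligand that is induced in injured and regenerating liver. Its level was 13.2, 13.8, 15.4 and 14.1 CPM in WT replicates 1 to 4 and 33.1, 41.1 and 35.02 CPM in WDR6-WKO replicates 1 to 3. Every WDR6-WKO library thus lay above the highest WT library, by at least 17.8 CPM. The mean was 14.1 ± 0.932 CPM in WT and 36.4 ± 4.15 CPM in WDR6-WKO, which is 2.58 times the WT level (log2 fold change 1.37, s.e. 0.09). The raw counts were 261 to 289 in WT and 627 to 869 in WDR6-WKO, where the spread between libraries (coefficient of variation 11.4%) was larger than the 3.62% that counting error gives.

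The *Areg* gene lies on the plus strand of chromosome 5 of GRCm38 from 91139599 to 91148432 and has 6 exons. Its promoter is shown because *Areg* had the largest difference of the 9 genes, and that of *Errfi1* because it was the only other promoter of a member that held the same motif. RefSeq promoter windows on GRCm38.p6, from 250 bases upstream of an annotated start to 50 bases downstream, were on hand for 6 members in 7 windows, *Errfi1* having 2. They were searched on both strands for the cyclic AMP response element TGACGTCA, the AP-1 element TGANTCA and the ATF4 element TGATGNAA. TGACGTCA was found in 2 of the 7 windows, those printed here, and in 1.79% of all 32851 windows. In *Areg* it begins 61 bases and in *Errfi1* 51 bases upstream of the annotated start. The AP-1 and ATF4 elements, present in 7.81% and 3.97% of all windows, were found in none of the 7, so no match overlapped another. In the sequences, which read 5′ to 3′ on the plus strand, capitals mark TGACGTCA. A match of letters is a description of the sequence and does not show that a factor was bound.
Areg, chr5:91139349-91139648: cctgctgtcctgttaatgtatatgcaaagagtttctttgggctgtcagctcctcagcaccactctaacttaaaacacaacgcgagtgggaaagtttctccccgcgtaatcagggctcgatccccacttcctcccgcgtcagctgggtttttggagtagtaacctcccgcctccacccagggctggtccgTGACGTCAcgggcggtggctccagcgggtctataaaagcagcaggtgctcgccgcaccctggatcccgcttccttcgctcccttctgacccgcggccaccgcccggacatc
Errfi1, chr4:150854820-150855119: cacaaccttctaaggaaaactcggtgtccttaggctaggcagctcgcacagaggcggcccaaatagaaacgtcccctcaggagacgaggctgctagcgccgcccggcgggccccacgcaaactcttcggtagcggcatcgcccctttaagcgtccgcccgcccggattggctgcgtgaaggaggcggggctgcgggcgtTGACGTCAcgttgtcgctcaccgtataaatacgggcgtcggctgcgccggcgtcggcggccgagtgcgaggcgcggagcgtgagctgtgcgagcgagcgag

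*Hbegf* encodes heparin-binding EGF-like growth factor, a ligand of EGFR and ERBB4. It was counted at 25.8, 25.1, 25.2 and 27.5 CPM in WT replicates 1 to 4 and at 34.7, 34.4 and 37.0 CPM in WDR6-WKO replicates 1 to 3. The WDR6-WKO libraries were all higher than the WT libraries and spread as little as these did, with coefficients of variation of 4.05% and 4.23%. The mean rose from 25.9 ± 1.10 CPM to 35.4 ± 1.43 CPM, a log2 fold change of 0.45 (s.e. 0.07).

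*Btc* encodes betacellulin, a further ligand of EGFR and ERBB4. Its level was 32.8, 32.7, 34.0 and 34.5 CPM in the WT libraries and 40.1, 44.7 and 50.4 CPM in the WDR6-WKO libraries. The groups did not overlap, but the WDR6-WKO libraries were spread more widely (coefficient of variation 11.5%) than those of WT (2.68%). The log2 fold change was 0.42 (s.e. 0.08), from 33.5 ± 0.898 CPM to 45.0 ± 5.17 CPM. With each library left out in turn, and under the other settings tried, it ranged from 0.33 to 0.50.

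*Ereg* encodes epiregulin, which also binds EGFR and ERBB4. It was at 17.2, 18.3, 18.3 and 18.5 CPM in WT replicates 1 to 4 and at 22.4, 22.5 and 25.6 CPM in WDR6-WKO replicates 1 to 3. The lowest WDR6-WKO library lay 3.87 CPM above the highest WT library. The log2 fold change of 0.38 (s.e. 0.08) was the smallest among the 4 higher ligands. The antisense gene *Gm19610* shares exon bases with *Ereg*. Of the 50-base stretches of the longest coding *Ereg* transcript, 2.255% were shared with transcripts of other genes on either strand. Because the strand setting of the counting is not given in the sources used here, reads from shared bases cannot be told apart.

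*Tgfa* encodes transforming growth factor alpha, the ligand with the highest level per length among the 5 in WT hepatocytes. It was counted at 117, 120.03, 113 and 118 CPM in WT replicates 1 to 4 and at 94.3, 87.5 and 94.1 CPM in WDR6-WKO replicates 1 to 3. In contrast to the other ligands, every WDR6-WKO library lay below every WT library. The mean was 117 ± 2.98 CPM in WT and 91.9 ± 3.89 CPM in WDR6-WKO, 21.6% lower, with a log2 fold change of -0.35 (s.e. 0.05). *Gm43917*, on the opposite strand, shares exon bases with *Tgfa*. Of the 50-base stretches of the longest coding *Tgfa* transcript, 1.563% were shared with transcripts of other genes.

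*Egfr* encodes the receptor that all 5 ligands bind. Its level was 525, 529, 577 and 570 CPM in WT replicates 1 to 4 and 394, 397 and 429 CPM in WDR6-WKO replicates 1 to 3. The highest WDR6-WKO library lay 96.9 CPM below the lowest WT library. The mean of 406.5 ± 19.2 CPM in WDR6-WKO was 26.1% below the 550.2 ± 27.0 CPM of WT (log2 fold change -0.44, s.e. 0.05). With raw counts of 7673 to 11363 per library, counting error was near 1% (0.968% in WT and 1.08% in WDR6-WKO).

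*Erbb3* encodes a receptor for neuregulins that signals through its partners. It stood at 30.5, 28.9, 29.8 and 32.4 CPM in WT replicates 1 to 4 and at 17.6, 14.1 and 15.3 CPM in WDR6-WKO replicates 1 to 3. This was the second largest difference of the 9 genes after *Areg*, and all WDR6-WKO libraries were at least 11.2 CPM below WT. The log2 fold change was -0.95 (s.e. 0.09), a level 48.4% lower than in WT. It stayed between -1.05 and -0.88 under all settings tried.

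*Erbb2* encodes the receptor without a known ligand, and it was the member with the fewest reads (157 to 256 per library). Its level was 10.7, 12.5, 11.9 and 11.999 CPM in WT replicates 1 to 4 and 10.6, 9.45 and 8.77 CPM in WDR6-WKO replicates 1 to 3. WDR6-WKO replicate 1 came within 0.101 CPM of WT replicate 1, and the coefficients of variation, 6.23% in WT and 9.84% in WDR6-WKO, compare with 6.61% and 6.996% from counting error. The log2 fold change of -0.29 (s.e. 0.11) did not reach the threshold. The gene *Mien1*, on the opposite strand, overlaps the end of *Erbb2*. Of the 50-base stretches of the longest coding *Erbb2* transcript, 0.0% were shared with transcripts of other genes on either strand. *Mien1* was counted at 7.13 ± 1.04 CPM in WT and 10.2 ± 3.49 CPM in WDR6-WKO.

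*Errfi1* encodes MIG6, a protein that is induced by EGFR signalling and blocks the receptor's kinase domain. It had the highest CPM of the members, 958, 942, 969 and 968 CPM in WT replicates 1 to 4 and 899, 879 and 914 CPM in WDR6-WKO replicates 1 to 3. The groups were 27.5 CPM apart, although the mean was only 6.43% lower in WDR6-WKO (log2 fold change -0.10, s.e. 0.04). It did not reach the threshold over all libraries, but did so without WDR6-WKO replicate 3 (log2 fold change -0.11, s.e. 0.04).

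To compare members with each other, CPM were divided by the length of each gene's merged exons (CPM per kb). In WT, *Errfi1* had the highest level per length at 268 ± 3.53 CPM per kb, followed by *Egfr* at 48.6 ± 2.38, *Tgfa* at 18.1 ± 0.460, *Areg* at 11.6 ± 0.767 and *Btc* at 7.42 ± 0.199. *Hbegf* at 5.35 ± 0.227 and *Erbb3* at 5.05 ± 0.248 CPM per kb had overlapping ranges in WT. *Ereg* at 4.38 ± 0.140 and *Erbb2* at 2.26 ± 0.141 CPM per kb were lowest. In WDR6-WKO hepatocytes *Areg*, at 30.0 ± 3.41 CPM per kb, stood above *Tgfa* at 14.2 ± 0.599, and *Ereg* at 5.70 ± 0.443 stood above *Erbb3* at 2.60 ± 0.296, and these pairs did not overlap in either genotype. *Areg* thus made up 24.8% ± 1.37 of the summed ligand level per length in WT and 44.6% ± 3.39 in WDR6-WKO, while the share of *Tgfa* was 38.6% ± 1.29 and 21.2% ± 1.83. The summed level of the 5 ligands was 46.8 ± 0.843 CPM per kb in WT and 67.1 ± 3.41 in WDR6-WKO, and that of the 3 receptors 55.9 ± 2.55 and 40.3 ± 1.503. Which transcripts were present is not known from gene counts. With the longest coding transcript as the length, chosen after seeing the data, *Btc* (11.7 CPM per kb) and *Areg* (11.6) changed places in WT, *Hbegf* (10.9) no longer lay near *Erbb3* (5.05), and the order in WDR6-WKO did not change. The shares of *Areg* and *Tgfa* given above depend on the merged exon lengths and were not computed with this length.

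**Figure D2:**
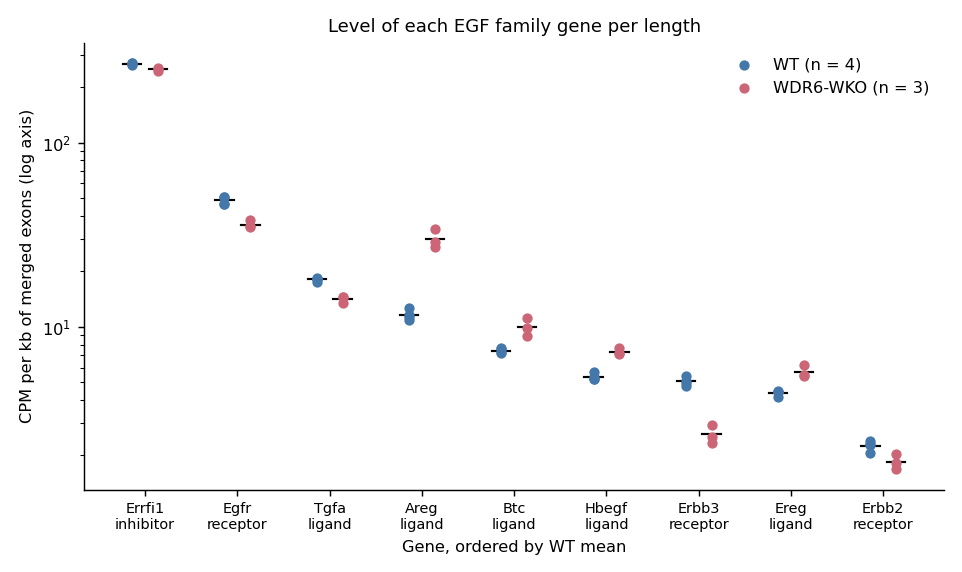
Level of each member per length of its merged exons, in CPM per kb on a log axis, ordered by the WT mean. Points are libraries (4 WT in blue, 3 WDR6-WKO in red) and black lines are means. *Areg* stands below *Tgfa* in WT, at 11.6 against 18.1 CPM per kb, and above it in WDR6-WKO, at 30.0 against 14.2.

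*Ereg*, *Areg* and *Btc* lie next to each other on chromosome 5, with *Ereg* from 91074622 to 91093646 on the plus strand and *Btc* from 91357261 to 91402994 on the minus strand. The span of this cluster, 375531 bases with the ligand gene *Epgn* at its left edge, holds 4 protein-coding genes. Of these, 3 were tested and were the ligands described above, and *Epgn* had no entry among the deposited counts. Among 9 other protein-coding genes tested within 500000 bases on either side, 2 were called in the edgeR test, where 12.8% of all genes were called. These were the chemokine genes *Cxcl5* and *Pf4*, named after their values were seen, both with a log2 fold change of 0.74 (adjusted P = 0.00222 and 0.00872 in the edgeR test). Both were low, with means of 5.19 and 3.06 CPM in WT and 8.68 and 5.11 CPM in WDR6-WKO. *Hbegf* and *Tgfa*, on chromosomes 18 and 6, lie outside the cluster.

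**Figure D3:**
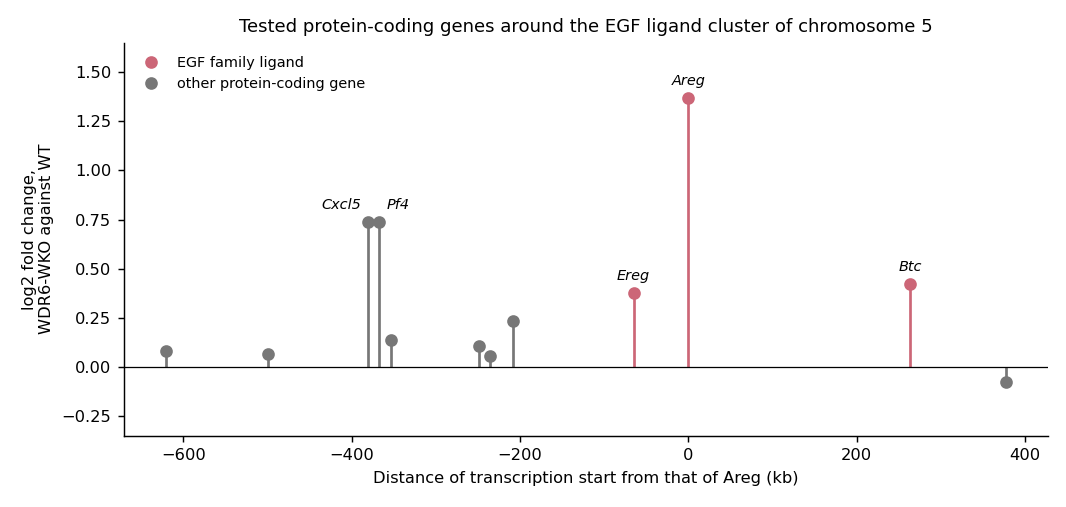
The log2 fold change (WDR6-WKO against WT, vertical axis) of the 12 tested protein-coding genes around the ligand cluster, placed by the distance of their transcription start from that of *Areg* in kb. Red points are EGF family ligands and grey points are other genes, of which only the 2 called are named. *Areg* stands highest at 1.37, and *Ereg* (0.38) and *Btc* (0.42) stand below *Cxcl5* and *Pf4* (0.74 each).

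Of 77 further genes of the pathway, taken from 5 lists, 71 were tested and 21 were called at an adjusted P below 0.05 in the edgeR test, 13 higher and 8 lower, where 12.8% of all genes were called, 6.65% higher and 6.18% lower. The same shares of all genes stand behind the count of each list. These lists too were chosen with earlier results of these data known. Their counts and adjusted P values are therefore given as a description. Their median log2 fold change was -0.02, beside 0.0051 for all genes tested, of which 51.2% were above 0. Of these 21 genes, 13 were ERK feedback genes and early targets. The number called in all 5 lists depended on the libraries, and was 42 without WDR6-WKO replicate 3 and 12 without WDR6-WKO replicate 2 or WT replicate 4.

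Among EGF family genes outside the 9 members, 3 of 7 were tested. The other 4, *Epgn*, *Nrg2*, *Nrg3* and the receptor gene *Erbb4*, had no entry among the deposited counts. *Nrg1*, which encodes the ERBB3 and ERBB4 ligand neuregulin 1, was counted at 21.5, 19.5, 22.6 and 22.4 CPM in WT and at 25.5, 27.3 and 30.2 CPM in WDR6-WKO. All WDR6-WKO libraries lay above WT. It rose from 21.5 ± 1.41 CPM to 27.7 ± 2.34, with a log2 fold change of 0.36 (s.e. 0.08, adjusted P = 0.00971 in the edgeR test), and it passed with each library left out in turn. *Nrg4*, a neuregulin that binds ERBB4, was at 14.3 ± 2.44 CPM in WT and 13.2 ± 2.66 in WDR6-WKO (log2 fold change -0.11, s.e. 0.15). *Egf* itself was at 0.842 ± 0.267 CPM in WT and 0.645 ± 0.237 in WDR6-WKO, a difference not detectable at this depth (log2 fold change -0.37, s.e. 0.36).

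All 9 genes of ligand shedding were tested, with 0 higher, 2 lower and a median log2 fold change of -0.12. Without WDR6-WKO replicate 3, 4 were called, all lower, and 1 without any other library. *Adam12*, a membrane metalloprotease, fell from 205 ± 0.727 CPM to 170 ± 8.32, a log2 fold change of -0.26 (s.e. 0.05, adjusted P = 0.00167 in the edgeR test). *Adam10*, which releases EGF and betacellulin, had a log2 fold change of -0.19 (s.e. 0.05, adjusted P = 0.0305 in the edgeR test), a call that was lost when any library other than WDR6-WKO replicate 3 was left out, with library sizes alone and with the replicate number as a block. *Adam17*, the main protease for amphiregulin, TGF alpha and HB-EGF, did not pass, at 63.1 ± 0.413 CPM in WT and 56.2 ± 4.88 in WDR6-WKO (log2 fold change -0.17, s.e. 0.06; named after its value was seen). *Adam9*, the gene with the highest CPM among those of the list without a call, was at 399 ± 10.1 and 417 ± 9.29 CPM.

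Of 20 adaptors and genes of the RAS-ERK cascade, all tested, 2 were lower and 18 did not pass, with a median log2 fold change of -0.07. This count depended on the libraries. It was 12, 3 higher and 9 lower, without WDR6-WKO replicate 3, and 0 without WDR6-WKO replicate 2 or WT replicate 1, 2 or 4. *Rps6ka1*, an ERK-activated kinase, had a log2 fold change of -0.27 (s.e. 0.07, adjusted P = 0.0250 in the edgeR test). *Plcg1*, a phospholipase recruited by EGFR, had a log2 fold change of -0.17 (s.e. 0.05, adjusted P = 0.0499). The call of *Rps6ka1* was lost without WDR6-WKO replicate 2 or WT replicate 1, 2 or 4. That of *Plcg1* was lost without any library other than WDR6-WKO replicate 3, with library sizes alone and with the replicate number as a block. *Ptpn11*, the phosphatase SHP2, was at 336 ± 3.04 CPM in WT and 352 ± 13.4 in WDR6-WKO without passing.

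Of 15 genes of receptor turnover and inhibition, 14 were tested, 1 was higher and 2 were lower. Without WDR6-WKO replicate 3, 7 were called, 2 higher and 5 lower, and 1 or 2 without any other library. *Cblc*, a ubiquitin ligase of epithelial cells that acts on EGFR, fell from 15.7 ± 0.659 CPM to 11.1 ± 1.38, with a log2 fold change of -0.49 (s.e. 0.10, adjusted P = 0.00470 in the edgeR test). *Socs5*, which promotes EGFR degradation, had a log2 fold change of -0.21 (s.e. 0.06, adjusted P = 0.0231). *Lrig1*, a membrane protein that restrains ErbB receptors, had a log2 fold change of 0.16 (s.e. 0.05, adjusted P = 0.0391). The last 2 calls were lost when some libraries were left out, *Lrig1* with any library other than WDR6-WKO replicate 3, and both with the block. *Cbl* was at 134 ± 9.60 CPM in WT and 126 ± 11.1 in WDR6-WKO without passing.

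The list of ERK feedback genes and early targets held the largest differences among the 5 lists. Of 26 genes, 25 were tested, 11 were higher and 2 were lower, with a median log2 fold change of 0.16. *Ccnd1*, the cyclin of G1 progression, rose from 117 ± 7.96 CPM to 171 ± 8.65, a log2 fold change of 0.54 (s.e. 0.06, adjusted P = 1.79e-05 in the edgeR test). *Dusp4*, a nuclear ERK phosphatase, rose from 80.1 ± 1.85 to 122 ± 14.4 CPM (log2 fold change 0.61, s.e. 0.07, adjusted P = 2.44e-05 in the same test). *Fosl1*, which encodes the AP-1 subunit FRA1, rose from 78.0 ± 5.84 to 117 ± 9.39 CPM and *Myc* from 174 ± 8.84 to 215 ± 11.3 CPM, with log2 fold changes of 0.59 (s.e. 0.07) and 0.30 (s.e. 0.05). The 2 lower genes are themselves early targets of ERK: the transcription factor gene *Egr1* fell from 179 ± 11.5 to 128 ± 1.67 CPM and the cytoplasmic ERK phosphatase gene *Dusp6* from 250 ± 5.65 to 211 ± 7.47 CPM (log2 fold changes -0.49, s.e. 0.06, and -0.25, s.e. 0.05). *Dusp1*, which had the highest CPM among genes of the list without a call, was at 214 ± 3.99 and 222 ± 20.8 CPM. With each library left out in turn, between 9 and 18 genes of the list were called, and the lower calls were 2 in all but 1 of these fits, the exception being 4 without WDR6-WKO replicate 3.

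**Figure D4:**
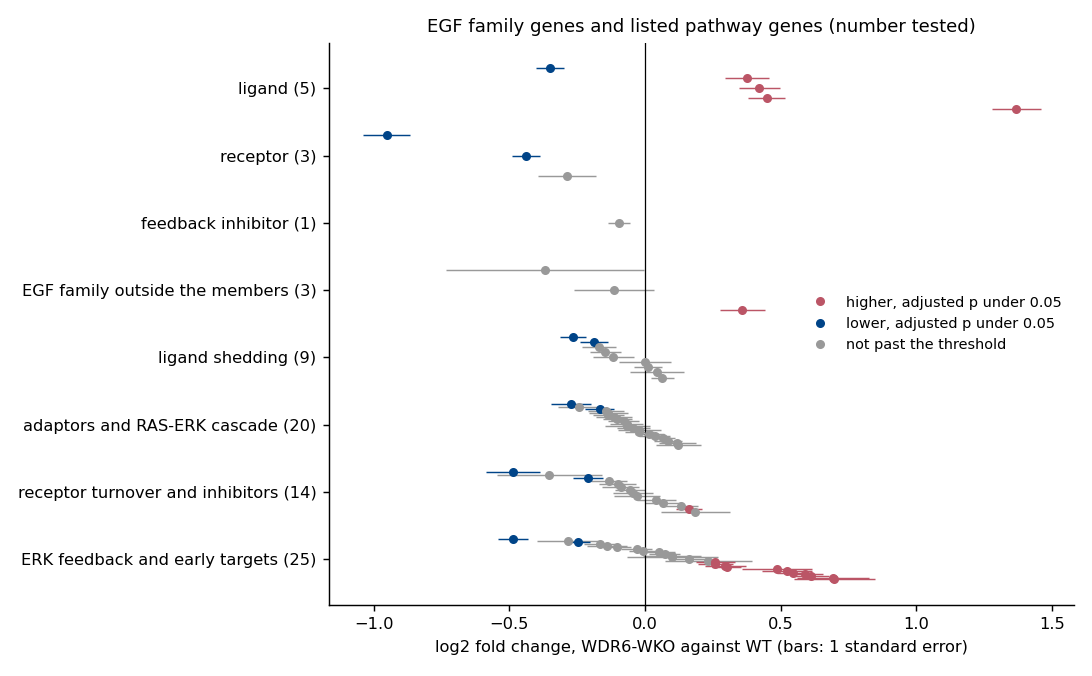
The log2 fold change (WDR6-WKO against WT) of the 9 members, in the upper 3 rows, and of the 71 tested pathway genes by list. Points are genes, bars are 1 standard error, and colour gives the call in the edgeR test, which is a description only. The ERK feedback and early target list holds 11 higher and 2 lower genes. Of 20 adaptor and cascade genes 18 lie in grey, with *Gab1* farthest from 0 at -0.24.

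The genes whose profile over the 7 libraries was most like that of *Areg* were *Mthfd2*, *Oas1g* and *Ly6a*, out of 13440 genes with a mean of at least 1 CPM. Likeness was measured as the root mean square difference of the log2 levels, each relative to its own WT mean, and was 0.10, 0.11 and 0.13 on the log2 scale. *Mthfd2*, a mitochondrial folate enzyme, was at 31.3 ± 1.26 CPM in WT and 80.1 ± 14.04 in WDR6-WKO. *Oas1g* belongs to a family of similar genes, among which reads could have been divided. For *Erbb3* the nearest genes were *Ahsg* (fetuin A), *Adh1* (alcohol dehydrogenase) and *Acmsd* (an enzyme of tryptophan breakdown), at 0.09, 0.11 and 0.11 on the log2 scale. These 6 genes were picked for their profile, so their levels carry no test.

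EGF ligands and receptors are also expressed by other liver cells, and the labelled cell type was compared with its markers. Of all genes tested, 6.65% were called higher and 6.18% lower, and these shares stand behind the count of each marker list. All 10 hepatocyte markers were counted, led by *Alb* at 7366 ± 730.4 CPM in WT, and 5 were lower in WDR6-WKO with 0 higher (median log2 fold change -0.35). The 5 were *Cps1*, *Apoa1*, *Fgb*, *Asgr1* and *Hnf4a*, with log2 fold changes of -0.69, -0.69, -0.45, -0.43 and -0.27. Of the 10 markers, 0 had a log2 fold change above 0, and 6 did not overlap between genotypes, against 23.5% of all genes. The summed level of the list was 15657 to 18623 CPM in WT and 14092 to 16111 CPM in WDR6-WKO, so the groups overlapped in this sum. *Alb* and *Apob* (5845 ± 479 CPM in WT), both without a call, make up most of it. Of 14 macrophage markers 5 were higher and 0 lower, and their sum was 1009 to 1071 CPM in WT and 1150 to 1357 CPM in WDR6-WKO without overlap. *Lyz2* and *C1qc* were higher (log2 fold changes 0.64 and 0.48, s.e. 0.06 and 0.09), while the Kupffer cell marker *Clec4f*, at 117 ± 5.62 and 126 ± 10.4 CPM, did not pass. Of the 14, 13 had a log2 fold change above 0. The exception was the Kupffer cell marker *Timd4* (log2 fold change -0.48, s.e. 0.18), which did not pass. It was low, at 2.87 to 4.02 CPM in WT and 2.29 to 2.84 CPM in WDR6-WKO, without overlap. Of 6 cholangiocyte markers tested, 3 had a log2 fold change above 0. *Spp1* and *Sox9* were higher, and *Krt19* was at 148 ± 15.3 and 143 ± 18.5 CPM. Because *Spp1* makes up most of that list, its sum, 3099 to 3394 CPM in WT and 3742 to 4337 CPM in WDR6-WKO, follows this gene.

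Stellate cell markers were higher for 2 of 9 genes, *Acta2* and *Dcn*, with sums of 463 to 516 CPM in WT and 511 to 541 CPM in WDR6-WKO. Of these 9 genes, 6 had a log2 fold change above 0. *Lrat*, *Pdgfrb* and *Col1a1* lay below 0 without passing (log2 fold changes -0.18, -0.23 and -0.03). Of 9 endothelial markers 1, *Tek*, was lower, and the sums overlapped, at 289 to 335 and 271 to 324 CPM. Of these 9, 3 had a log2 fold change above 0, *Stab1*, *Stab2* and *Vwf* (0.01, 0.06 and 0.16), without passing. Only 1 of 7 markers of other leukocytes, *Ptprc*, had an entry among the deposited counts, at 12.9 to 16.0 CPM over all libraries. The other 6, *Cd3e*, *Cd79a*, *Ms4a1*, *Nkg7*, *S100a8* and *S100a9*, had no entry. The part of these cells in the levels of the 9 members was not tested, and in such bulk samples fewer cells of a type and less RNA per cell cannot be told apart.

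**Figure D5:**
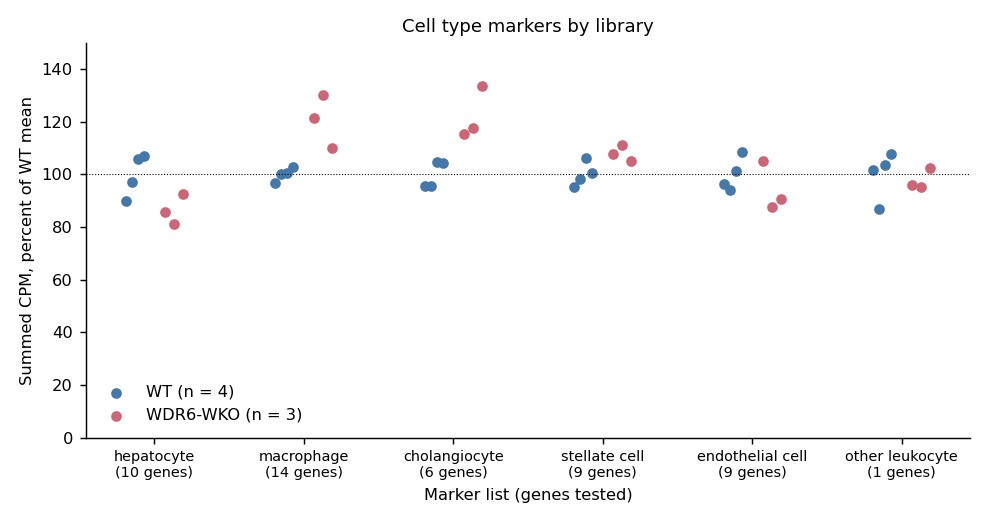
Summed CPM of each list of cell type markers in every library, as a percent of the WT mean of that list (4 WT libraries in blue, 3 WDR6-WKO in red, dotted line at the WT mean), on an axis from 0. The macrophage and cholangiocyte sums of WDR6-WKO lie above every WT library, while the hepatocyte, stellate cell and endothelial sums overlap between the genotypes.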

How the data were processed

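RNA of 7 primary hepatocyte samples, 4 WT and 3 WDR6-WKO, was sequenced on an Illumina HiSeq platform from NEBNext Ultra libraries. Per the submitters' processing notes and the study's methods, reads were aligned to mm10 with Bowtie2 2.2.3. The values the authors deposited are unnormalized read counts for each gene symbol. The counting tool, annotation and strand setting are not given in the sources used here. The table has 14819 rows with 14817 different identifiers, 21 of them spreadsheet dates, and no row total below 50. Columns were matched to samples by genotype and replicate number, and 0 columns were left unmatched.

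The deposited counts were fitted in edgeR 4.0.16 under R 4.3.3 (TMM scaling, expression filter, robust quasi-likelihood test, Benjamini-Hochberg adjustment over 14779 genes). The study used DESeq2, and DESeq2 1.42.0 was run here as an alternative, as were other scalings, filters, a replicate block and each library left out in turn. Standard errors came from the log2 fold change and its F statistic. All libraries of a genotype differed by more than sampling noise (chi-square per gene of at least 3.80). P values weigh the difference between the genotypes against the spread between the libraries of each genotype. The steps were tested on simulated data. Same-numbered libraries did not deviate together (correlations 0.06, 0.03 and 0.05), so the numbers were not used as pairs.

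The members and all lists were chosen with earlier results of these data known. Named genes were the members, *Wdr6*, up to 6 called genes and the gene of highest CPM without a call in each pathway list, up to 4 called genes in each marker list, and the 3 genes nearest in profile to each of the 2 members with the largest change; not all are described. Positions and merged exon lengths came from GENCODE vM21 and promoters from RefSeq, both on GRCm38. Protein sequences were not used here.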

Additional observations from a re-analysis of the deposited data

Results flagged for a closer look

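Among 87 genes examined, each with 4 WT libraries, 4 had a library that stood apart by Dixon's test at the 95% level, and chance alone gives about 1 in 20. All 4 were cases of WT replicate 1, and none concerned a member. *Rhbdf2*, which guides ADAM17 to the cell surface, was at 111 CPM there against 103 to 104 CPM in the other WT libraries. *Dusp6* was at 242 CPM against 253 to 254 CPM. *Egr2* was at 3.68 CPM against 4.47 to 4.61 CPM, and *Ly6a* at 4.18 CPM against 4.63 to 4.71 CPM. The 3 WDR6-WKO libraries were too few for this test.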

How the results depend on the processing

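The log2 fold changes of the 9 members kept their direction under all 117 combinations of member and alternative, and their side of the threshold in 116, the exception being *Errfi1* without WDR6-WKO replicate 3. Of the 351 combinations for 27 other genes, 0 changed direction and 52 fell short of the threshold. These 27 were the called pathway genes and the genes nearest in profile to *Areg* and *Erbb3*. Named genes without a call and the cell type markers were not among them. Leaving out each library in turn, the number of genes called ranged from 1032 (without WDR6-WKO replicate 2) to 4233 (without WDR6-WKO replicate 3) in place of 1897, pathway genes called from 12 to 42 in place of 21, and markers of other cells from 5 to 16 in place of 10; the cause was not tested. When calls instead required a log2 fold change of 0.35 or more in size with an unadjusted P below 0.05, 10 pathway genes were called, and small differences could not qualify by construction. Scaling to library sizes alone called 1212 genes as higher and 696 as lower in place of 983 and 914, with a median log2 fold change over all genes of 0.03, and called the same number of members, 4 higher and 3 lower. DESeq2 called 2000 genes, 7 members and 22 pathway genes. The fit with the replicate number as a block called 1762 genes, 7 members and 15 pathway genes, and the numbers do not pair the samples. With the longest coding transcript as the length, the summed ligand level in WDR6-WKO was 1.34 times that of WT, in place of 1.43. For *Erbb2* counting error was as large as the spread between WT libraries, and for *Egf* the standard error was nearly as large as the log2 fold change.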

Other observations

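Within families of early response genes, members went different ways; these were named after their values were seen. Among the EGR genes, *Egr1* was lower in WDR6-WKO hepatocytes, while *Egr2* rose from 4.32 ± 0.429 CPM to 6.99 ± 0.473 CPM, with a log2 fold change of 0.69 (s.e. 0.13, adjusted P = 0.00283 in the edgeR test). Among the AP-1 genes, *Fosb* and *Jun* rose together with *Fosl1*, by log2 fold changes of 0.70 (s.e. 0.15) and 0.30 (s.e. 0.08), whereas *Fos* was at 13.6 ± 1.27 CPM in WT and 11.2 ± 1.57 CPM in WDR6-WKO and did not pass (log2 fold change -0.28, s.e. 0.11). *Junb* was at 164 ± 15.6 and 176 ± 40.2 CPM. Of the ERK phosphatases, *Dusp5* rose with *Dusp4* (log2 fold change 0.26, s.e. 0.07, adjusted P = 0.0163 in the edgeR test) and *Dusp6* fell. The calls of *Jun* and *Dusp5* were lost when WDR6-WKO replicate 1 or 2 or WT replicate 2 or 4 was left out, and that of *Fosb* without WDR6-WKO replicate 1. Differences between the members of a family were not tested.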
